A study of Mus musculus with 10 samples.

Results

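The genes described here are 47 of the 48709 genes in the deposited tables, and they encode the proteins that license, copy and repackage DNA or make the deoxynucleotides for it. They were chosen by symbol as the licensing, polymerase, clamp-loader and dNTP genes of the mouse and fall into 10 sub-complexes or steps. All 47 symbols were found in the tables. The cells were supporting cells of the utricle, a balance organ of the inner ear, sorted by fluorescence from explants of Lfng-EGFP mice at postnatal day 21, in which regulatory sequence of Lfng drives EGFP. TRULI is a small molecule that inhibits the Lats kinases, which restrain the coactivator Yap, and it was given at 10 µM for 5 days. Every group, the controls included, carried the reporter and 0.1% DMSO. The 4 labelled groups were DMSO at 5 days (3 libraries), TRULI at 5 days (3), DMSO for 5 days with 5 days of recovery (2) and TRULI for 5 days with 5 days of recovery (2). The methods speak of biological replicates, but neither they nor the labels say that these came from separate animals, so p-values here measure the spread between these libraries.

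For 4 of the 10 libraries the label and the name of the deposited table give different conditions. The pair labelled TRULI at 5 days, replicates 1 and 2, was deposited under names of DMSO at 10 days and is called pair A. The pair labelled DMSO at 10 days, replicates 1 and 2, was deposited under names of TRULI at 5 days, replicates 2 and 3, and is called pair B. The other 6 libraries have the same condition in both sources: the 3 controls at 5 days, the TRULI library labelled replicate 3, and both withdrawn libraries (TRULI followed by recovery). Labels set the main comparisons, and each is given beside the same fit with groups set by name. Both are given because the counts of changed genes differ with the placing of pairs A and B. Counts were also compared library by library, with a chi-square divided by its degrees of freedom as the distance. The TRULI library lay at 15.3 and 26.0 from pair B, 147 and 128 from pair A, and 19.5 to 34.6 from the controls. Pair A lay at 29.3 to 52.1 from the withdrawn libraries and 114 to 184 from the controls. The share of a mitochondrial RNA given below split the libraries alike. Whether label or name is right was not tested.

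A cell copies its genome once per division. In G1 phase the origin recognition complex, Cdc6 and Cdt1 load the Mcm2-7 helicase onto origins, and in S phase Cdc45 and the GINS proteins turn it into a moving helicase that the polymerases follow. Ribonucleotide reductase and thymidylate synthesis supply the dNTPs, and transcription of most of these genes is known to rise at the G1 to S boundary under E2F factors. Supporting cells of the mature mouse utricle are known to be almost entirely quiescent.

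The 10 tables summed to between 2463872 and 6255149 expected counts, and 3 counts corresponded to 0.469 to 1.2 CPM (counts scaled to library size, with factors of the TMM method), which is the upper limit that a count of 0 allows in a library. Such limits, and the intervals below, cover counting error only. The mitochondrial ribosomal RNA mt-Rnr2 took 1.45% to 2.53% of the counts in pair A and the withdrawn libraries and 13.0% to 26.4% in the other 6. Comparisons of the withdrawn libraries with pair B, or with the libraries named TRULI day 5, thus set low shares against high ones. Summed levels of 11 supporting cell markers lay between 2360 and 9300 CPM in every library, with the 4 lowest sums in those same 4 libraries, while 8 leukocyte markers together reached at most 18.1 CPM and 4 erythroid markers at most 0.249 CPM. Adgre1, C1qa and C1qb of the former and 3 globin genes of the latter were at 0 throughout. Summed levels of 11 hair cell markers were not even across libraries, at 327 to 560 CPM in the controls, 1160 in the TRULI library, 354 and 356 in pair A, 824 and 399 in pair B, and 1280 and 446 in the withdrawn libraries. Those of 7 mesenchyme markers were at 19.2 to 38.9 CPM in the controls, 41.0 in the TRULI library, 50.8 and 38.1 in pair A, 111 and 41.4 in pair B, and 126 and 35.6 in the withdrawn libraries. The TRULI library, the first of pair B and the first withdrawn library thus held the most hair cell RNA, and the last 2 of these the most mesenchyme RNA. Sums of 4 Schwann cell markers reached 143 CPM in the first withdrawn library and 54.3 to 88.7 elsewhere, while those of 4 melanocyte and 4 endothelial markers were at most 14.1 and 2.96 CPM. The part of these differences in the results below was not tested. Exons of 18 of the 47 genes overlap those of another gene, and since no strand setting is given for the counts, reads of the 2 genes cannot be told apart there. In bulk libraries, fewer cells of a type and less RNA per cell cannot be told apart.

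Promoter sequence was available for 37 of the 47 genes (RefSeq, mouse build GRCm38.p6); Gins1, Tipin, Prim2, Dscc1, Mcm4, Rfc2, Gins2, Pole, Gmnn and Gins4 had no entry. The 250 bases before each start were searched on both strands for the E2F letters TTTCCCGC, TTTCGCGC, TTTGCCGC and TTTGGCGC, for CCAAT, and for the cell-cycle homology letters TTTGAA and TTCGAA. E2F letters were present before 8 of the 37 genes (21.6%), against 583 of 27025 genes in the table (2.16%). CCAAT was present before 23 of 37 (62.2%) against 37.5% of all genes, and the cell-cycle homology letters before 7 of 37 (18.9%) against 19.6%. The 8 genes with E2F letters were Cdc6, Gins3, Mcm5, Mcm6, Mcm7, Orc1, Pola1 and Rfc3. Of these, the 4 shown here are the ones called higher at 5 days when groups follow the deposited names, and Rrm2, which was called with them but holds no such letters in its window, is shown for contrast. Each stretch runs from 170 to 31 bases before the start in the direction of the gene, with E2F letters in capitals. They lie at chr8:75109339-75109478, plus strand (Mcm5), chr1:128359736-128359875, minus strand (Mcm6), chr5:138171914-138172053, minus strand (Mcm7, one of its 2 listed starts), chr11:98907981-98908120, plus strand (Cdc6) and chr12:24708084-24708223, plus strand (Rrm2).
Mcm5: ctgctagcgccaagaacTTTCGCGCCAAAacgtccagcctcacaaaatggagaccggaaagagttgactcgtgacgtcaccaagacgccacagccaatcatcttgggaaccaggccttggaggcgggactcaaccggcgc
Mcm6: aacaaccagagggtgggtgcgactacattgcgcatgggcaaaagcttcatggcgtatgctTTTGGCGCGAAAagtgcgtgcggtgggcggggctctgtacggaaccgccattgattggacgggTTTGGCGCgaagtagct
Mcm7: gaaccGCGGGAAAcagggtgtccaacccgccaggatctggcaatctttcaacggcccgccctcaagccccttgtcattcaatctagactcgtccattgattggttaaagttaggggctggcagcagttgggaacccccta
Cdc6: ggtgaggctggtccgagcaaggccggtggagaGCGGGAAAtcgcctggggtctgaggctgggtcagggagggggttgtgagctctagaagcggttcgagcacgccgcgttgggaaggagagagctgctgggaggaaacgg
Rrm2: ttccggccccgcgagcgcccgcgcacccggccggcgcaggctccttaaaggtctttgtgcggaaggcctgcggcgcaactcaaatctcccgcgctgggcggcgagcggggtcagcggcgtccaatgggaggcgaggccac
Mcm6 had 3 matches on the searched strands, the first 2 overlapping each other, and Mcm5 had 2 that overlap. A match describes letters only and not a bound site.

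Across all 10 libraries these genes were expressed at low to moderate levels, and 1 pair of libraries stood above the rest. Per kilobase of effective length, the highest mean levels were those of Pcna (57.4 CPM per kilobase), Mcm7 (50.65), Pole (39.8) and Rfc2 (32.5), and the lowest those of Orc1 (0.275) and Chaf1a (0.219). The summed level of the 47 genes was 468.2, 514.5 and 429.8 CPM in the controls, 604.4 in the TRULI library, 447.5 and 600.9 in pair A, 1406 and 954.6 in pair B, and 563.8 and 593.3 in the withdrawn libraries. Both libraries of pair B lay above the other 8. Of the 47 genes, 34 had their highest value in the first library of pair B and 5 in the second, where 7.95% and 8.74% of 12841 genes did. The 8 exceptions were Gins4, Rfc5, Orc6 and Dut, highest in the second library of pair A, Mcm7 and Pola2, highest in the second withdrawn library, Gins3 in the first withdrawn library, and Pole in the first control. All 47 genes had counts in the TRULI library and in both libraries of pair B, against 40 to 43 in the controls, 40 and 33 in pair A, and 43 and 37 in the withdrawn libraries. Detection over the whole table ran partly the same way, with 17040 genes in the first library of pair B, 16570 in the TRULI library, 15855 in the second library of pair B, 15049 to 15880 in the controls, 15439 and 14250 in pair A, and 15567 and 14668 in the withdrawn libraries. Its part in the detection of these 47 genes was not tested.

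**Figure D1:**
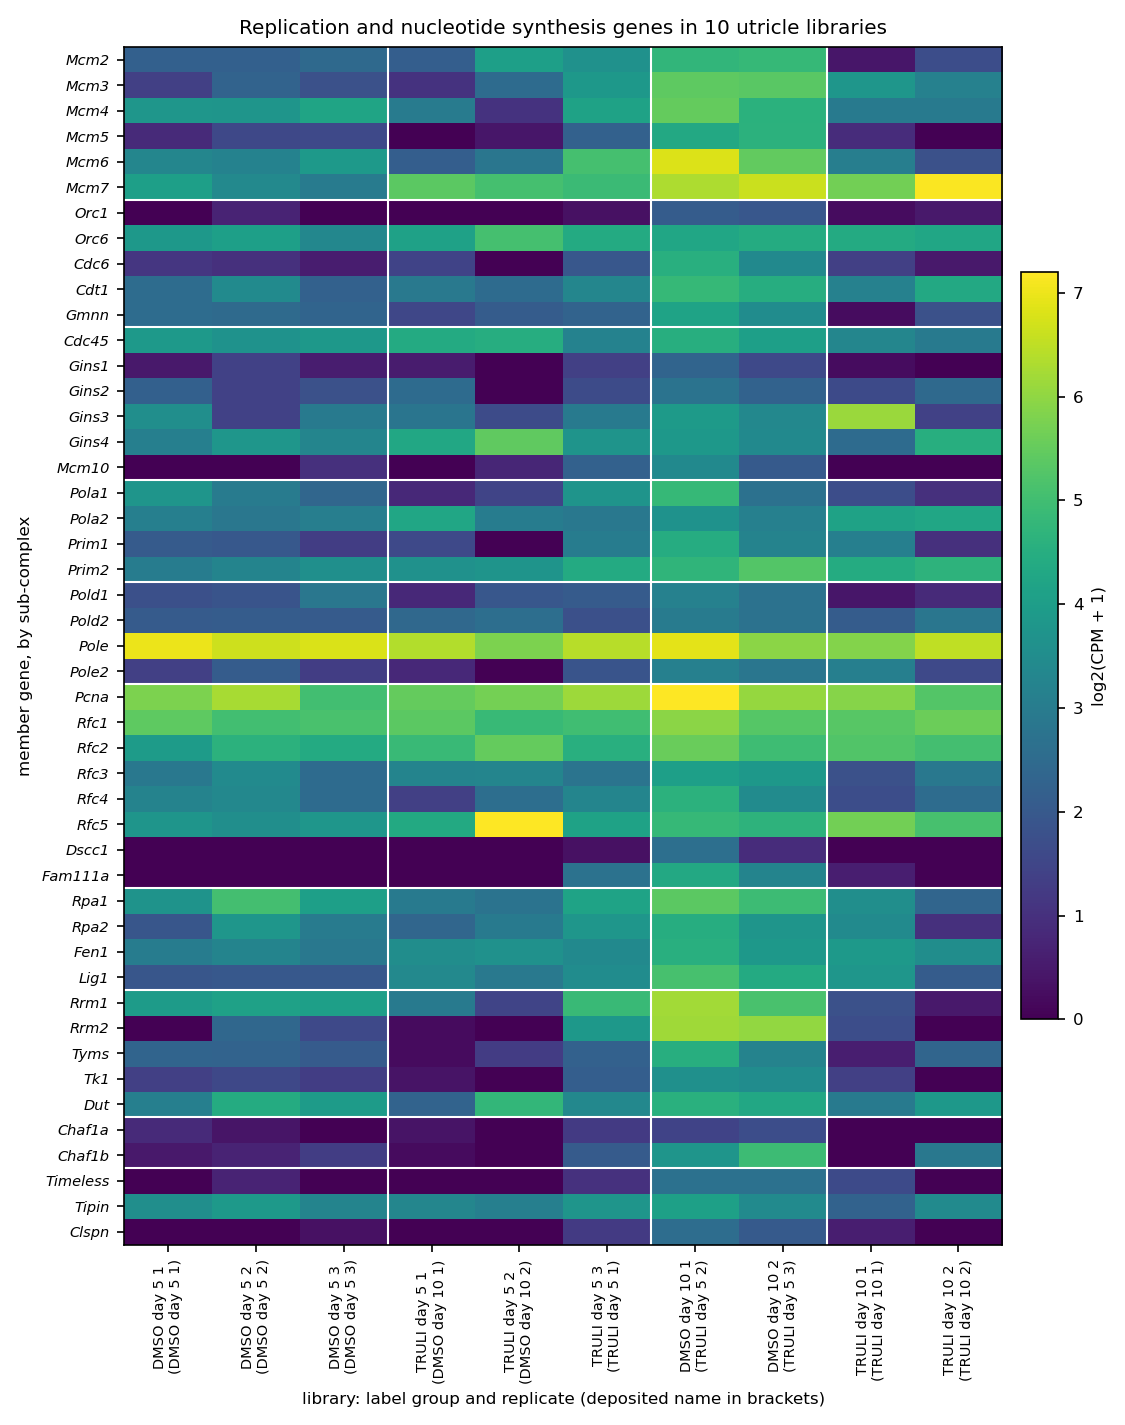
Level of each of the 47 genes (rows, by sub-complex, on a log2(CPM + 1) colour scale) in each library (columns, by label, with the deposited name in brackets). The 2 columns labelled DMSO day 10, pair B, are the brightest for most genes, with Mcm7, Rfc5, Gins3 and Pole among the rows that depart from this.

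The comparison at 5 days asked how replication genes differed between supporting cells under TRULI and under DMSO. With groups set by label, 0 of the 30 genes tested were called, a call being a log2 fold change above 1 in size whose edgeR adjusted p (quasi-likelihood) is below 0.05, where 0.00903% of 11071 genes were called higher and 0.0% lower. Their median log2 fold change was 0.155, against 0.0459 over all genes tested. Of the 30, 4 had an unadjusted p under 0.05, namely Mcm7, Gins4, Rfc5 and Lig1, as did 1515 of the 11071. DESeq2 called 1, Mcm7 (log2 fold change 1.71, adjusted p 0.0218), and edgeR called Mcm7 and Rfc5 when genes of low count were kept (adjusted p 0.0459 and 0.00114). Over all genes those 2 settings called 1.97% and 2.7% higher. The counts of 1 of 30 and 2 of 47 were thus near the background.

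Mcm7 encodes a subunit of the helicase ring. It stood at 15.6, 9.53 and 6.94 CPM in the controls, at 29.2 in the TRULI library and at 40.5 and 32.7 in pair A. The labelled groups did not overlap, and the log2 fold change was 1.70 ± 0.44 (SE, n = 3 and 3) with an adjusted p of 0.323 in edgeR. Without the TRULI library, which left pair A against the controls, 3 of 31 genes were called higher, where 10.7% of all 11382 genes tested were. In all, 6 of the 30 genes had every labelled TRULI library above every control (Mcm7, Orc6, Prim2, Rfc5, Fen1 and Lig1) and 2 lay below (Gmnn and Pole), where 8.18% and 10.0% of all tested genes did so.

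With groups set by deposited name, the TRULI group is the TRULI library with pair B, and 12 of 41 genes tested rose while 0 fell (background 2.05% higher, 1.02% lower and 3.07% in either direction, of 11529). The 12 were 5 of the 6 helicase subunits (Mcm2, Mcm3, Mcm5, Mcm6 and Mcm7), Cdc6, Prim2, Fam111a, Lig1, Rrm1, Rrm2 and Chaf1b. The median log2 fold change of the 41 was 1.06, against 0.0258 over all genes tested, and 40 of the 41 were above 0. Tested by name but not by label were Mcm5, Cdc6, Gins2, Mcm10, Prim1, Pold1, Pole2, Fam111a, Rrm2, Tk1 and Chaf1b. By label pair A stands in place of pair B beside the same controls, so these genes entered with pair B. The median and the count above 0 rest partly on them, as do the calls of Mcm5, Cdc6, Fam111a, Rrm2 and Chaf1b. The largest fitted change among genes with counts in every group was that of Rrm2, the small subunit of ribonucleotide reductase, at 4.54 ± 0.78 (SE, n = 3 and 3, adjusted p 0.0132). In 22 of the 47 genes every library named TRULI day 5 lay above every control, 18 of them among the 41 tested, where 10.6% of all genes tested did so, and 0 lay below, against 10.7%. The count of 12 was 7, 1 and 3 without controls 1, 2 and 3 in turn, 15 without the TRULI library, 4 and 9 without the first or second library of pair B, and 3 with all 10 libraries in one fit. Over all genes tested the share called higher in these refits was 1.41%, 0.321% and 0.857% without each control, 1.96% without the TRULI library, 0.888% and 2.13% without each library of pair B, and 0.522% in the one fit. The count over all genes thus moved as well. The 3 genes still called in the one fit were Mcm3, Mcm7 and Fam111a.

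The TRULI library can be set against the controls whatever the status of the pairs. It lay above all 3 controls for 23 of the 47 genes, 19 of the 41 tested, and below all 3 for 5 (Gmnn, Cdc45, Pold2, Pole and Rfc1), where 28.5% and 26.7% of all genes tested did so. With 1 library against 3, taken to vary as the controls do, edgeR called 0 of the 41, where 0.777% of 12348 genes were called higher and 0.308% lower, and 8 of the 41 and 1455 of the 12348 had an unadjusted p under 0.05.

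**Figure D2:**
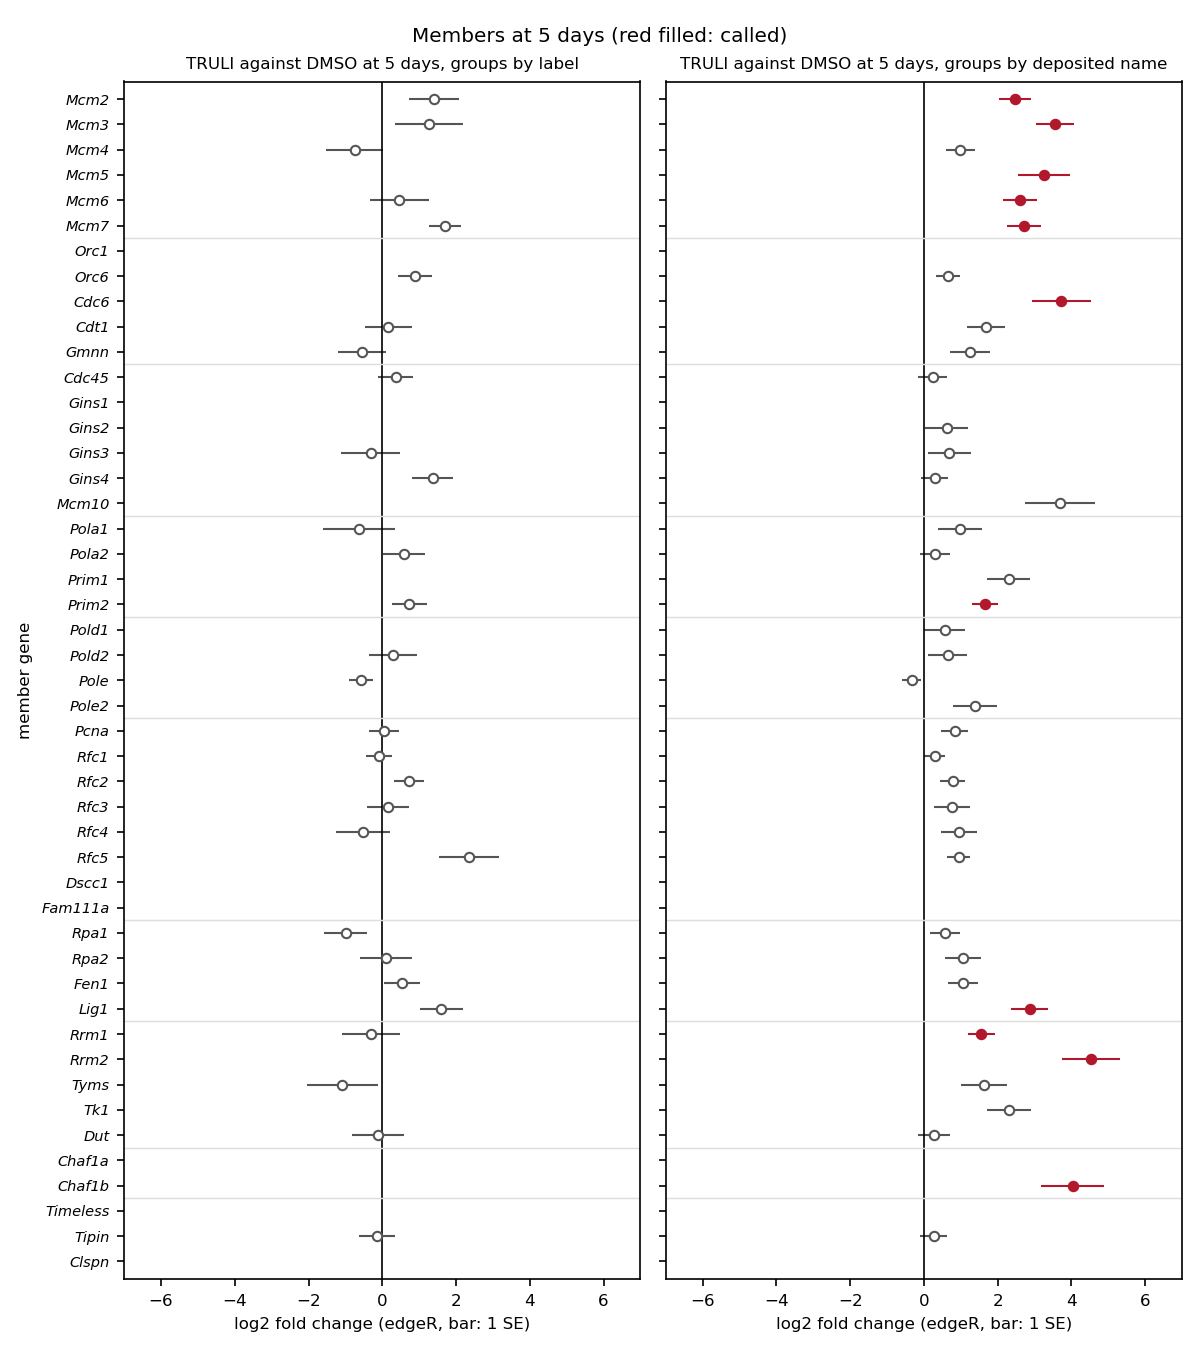
Log2 fold change of each gene between TRULI and DMSO at 5 days (points, with bars of 1 SE from edgeR), with groups set by label (left) and by deposited name (right). No point is called on the left and 11 are on the right, filled red; Fam111a, called as well, and other genes with a group at 3 counts or fewer are left off.

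The withdrawal comparison asked whether a difference was present after 5 days without the compound. With groups set by label, the withdrawn libraries are compared with pair B, and 3 of 45 genes tested fell while 0 rose, where 1.06% of 12242 genes fell, 1.0% rose and 2.07% did either. The 3 were Mcm6 (log2 fold change -3.93 ± 0.72, adjusted p 0.0455), Rrm1 (-5.16 ± 0.84, 0.0425) and Rrm2 (-5.82 ± 1.01, 0.0442; SE, n = 2 and 2, edgeR). The median log2 fold change of the 45 was -1.73, against 0.0227 over all genes tested, and 40 of the 45 were below 0. Tested here but not against pair A were Mcm5, Orc1, Cdc6, Gins1, Mcm10, Pola1, Pold1, Fam111a, Rrm2, Tyms, Tk1, Chaf1b, Timeless and Clspn. They entered with pair B, and the median, the count below 0 and the call of Rrm2 rest partly on that. For 33 of the 47 genes, 31 of them tested, both withdrawn libraries lay below both libraries of pair B, and for 2, Pola2 and Rfc5, both lay above, where 30.4% and 27.3% of all genes tested did so. The count of 3 was 0 without either library of pair B, 22 and 19 without the first or second withdrawn library, 14 by DESeq2, 17 without the filter on low counts, 15 with the replicate number as a block, and 0 with all 10 libraries in one fit. The share of all genes called lower moved too, to 0.0609% and 0.0904% without each library of pair B, 12.8% and 8.25% without each withdrawn library, 5.07% by DESeq2, 3.63% without the filter, 4.44% with the block and 0.0% in the one fit.

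When the deposited names are followed, the withdrawn libraries are compared with pair A instead, and 0 of 31 genes tested were called in either direction by edgeR (background 0.0% of 11568 in each direction) and 0 by DESeq2 (0.363% of all genes higher and 0.0605% lower). The median log2 fold change was 0.094, against 0.00657 over all genes tested. An unadjusted p under 0.05 was found for 3 of the 31 and 532 of the 11568. Both withdrawn libraries lay above both of pair A for 6 of the 47 genes (Mcm3, Mcm7, Orc1, Cdt1, Prim2 and Pole2; 5 of them tested) and below for 3 (Mcm2, Cdc45 and Rfc3), where 14.8% and 13.9% of all genes tested did so.

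The remaining comparison set the withdrawn libraries against those still under TRULI. The withdrawn libraries were also 5 days longer in culture, so withdrawal and time cannot be told apart in it. By label, edgeR called 0 of 36 genes (background 0.0% of 12288 in each direction), and DESeq2 called 0 (0.0326% of all genes higher and 0.0% lower). In edgeR, 3 of the 36 and 399 of the 12288 had an unadjusted p under 0.05. Both withdrawn libraries lay above every labelled TRULI library for Mcm7 and Prim2 and below for Mcm2, where 7.85% and 8.11% of all genes tested did so. By name, 9 of 44 genes fell and 0 rose, where 5.85% of 12450 genes fell and 8.04% rose. The 9 were Mcm2, Mcm4, Mcm5, Mcm6, Mcm10, Pola1, Fam111a, Rrm1 and Rrm2. The median log2 fold change of the 44 was -1.45, against -0.00698 over all genes tested. Tested by name but not by label were Mcm5, Orc1, Cdc6, Mcm10, Fam111a, Tk1, Timeless and Clspn, which entered with pair B. The median and the calls of Mcm5, Mcm10 and Fam111a rest partly on that. Both withdrawn libraries lay below every library named TRULI day 5 for 22 of the 47 genes, 19 of them tested, and above for Pola2 and Rfc5, where 27.0% and 24.1% of all genes tested did so. Against the TRULI library alone, both lay below for 24 of the 47, 19 of the 41 tested, and above for 8, where 38.3% and 35.2% of all genes tested did so. The count of 9 was 3, 0 and 1 without the 3 libraries named TRULI day 5 in turn, 14 and 8 without the first or second withdrawn library, and 16 by DESeq2, where 1.06%, 0.0493%, 1.72%, 8.76%, 5.32% and 10.4% of all genes tested were called lower.

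These comparisons share libraries: by label pair B serves as the control of the withdrawn libraries, and by name it is part of the TRULI group at 5 days. Within the 6 libraries whose label and name give the same condition, 15 of the 47 genes were above every control in the TRULI library and lower than that in both withdrawn libraries, 12 of them among the 41 tested, where 16.9% of 12348 genes were. A test of whether effects at 5 days and after withdrawal differed called 0 genes under either grouping (edgeR, background 0.0% of 12841). An unadjusted p under 0.05 was found for 12 of 44 genes tested by label and 8 by name, where 874 and 1217 of the 12841 had one. DESeq2 called 1 of the 44 under each (0.265% and 0.327% of all genes), with a higher signed log2 fold change at 5 days than after withdrawal. By label the medians of the genes tested were 0.155 at 5 days and -1.73 after withdrawal. A positive difference there does not mean a larger effect in size at 5 days.

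**Figure D3:**
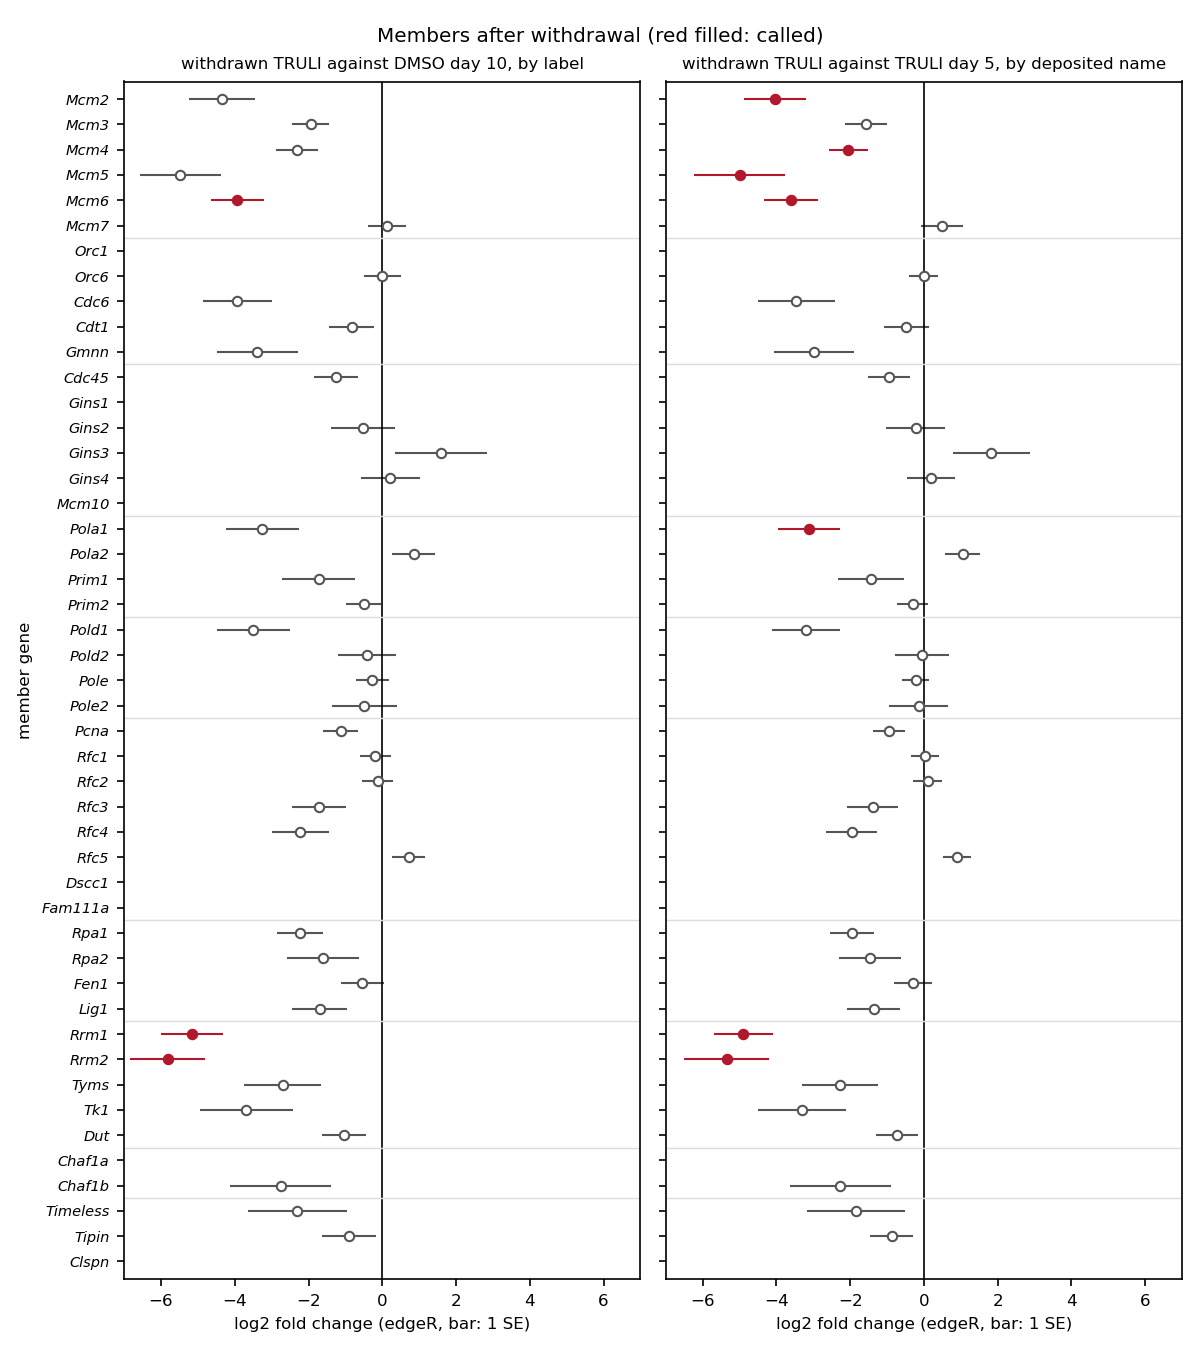
Log2 fold change of each gene in the withdrawn libraries (points, with bars of 1 SE from edgeR) against the libraries labelled DMSO day 10 (left) and against those named TRULI day 5 (right), which share pair B. Mcm6, Rrm1 and Rrm2 are filled red on the left, and 7 genes are on the right; genes with a group at 3 counts or fewer are left off.

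The Mcm2-7 ring is the helicase that unwinds DNA ahead of the polymerases. Its 6 subunits together stood at 43.2, 39.8 and 47.3 CPM in the controls, 107 in the TRULI library, 55.5 and 60.7 in pair A, 321 and 254 in pair B, and 78.4 and 159.9 in the withdrawn libraries. Pair B and the TRULI library lay above the controls and pair A, while the withdrawn libraries spanned the TRULI value. Most of the sum after withdrawal was 1 subunit, Mcm7, at 50.3 and 141 CPM there, against 77.8 and 97.4 in pair B. By name it rose at 5 days (2.72 ± 0.46, adjusted p 0.012; 0.0904 and 0.0608 without control 2 or 3) and did not pass the test after withdrawal under either grouping (0.12 ± 0.51 by label and 1.38 ± 0.58 by name). Its annotated exons on chromosome 5 (138164583 to 138172422, minus strand, GRCm38) overlap Mir25, Mir93, Ap4m1 and Cops6, and how the counting divided shared reads is not given in the sources used here.

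Mcm6 (chromosome 1, 128331590 to 128359664) showed the other pattern. Its values were 8.79, 8.21 and 13.9 CPM in the controls, 32.6 in the TRULI library, 3.44 and 6.11 in pair A, 113 and 43.2 in pair B, and 7.48 and 2.44 in the withdrawn libraries. The TRULI library and pair B thus lay above every other library. By name it rose at 5 days (log2 fold change 2.61 ± 0.47 SE, adjusted p 0.0151) and fell from there to withdrawal (-3.61 ± 0.73, 0.0207). By label it was at 0.46 ± 0.80 at 5 days with an adjusted p of 0.798.

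Mcm2, Mcm3 and Mcm5 followed Mcm6 in part. Mcm3 stood at 1.60 to 3.94 CPM in the controls, 13.4 in the TRULI library, 1.09 and 4.67 in pair A, 41.3 and 39.6 in pair B, and 12.9 and 7.93 in the withdrawn libraries, which lay above every control. Mcm5 reached 19.4 and 23.5 CPM in pair B and 3.68 in the TRULI library, against 0.799 to 1.98 in the controls, 0 and 0.359 in pair A, and 0.870 and 0 in the withdrawn libraries. At 5 days by name, Mcm2, Mcm3 and Mcm5 rose by 2.47 ± 0.43, 3.55 ± 0.52 and 3.25 ± 0.71 on the log2 scale (adjusted p 0.0141, 0.00703 and 0.0339). With all 10 libraries in one fit Mcm2 and Mcm5 were not called (0.139 and 0.153). Mcm2 was at 15.8 CPM in the second library of pair A, above the 11.6 of the TRULI library, and at 0.348 and 2.24 after withdrawal. Mcm4, at 12.5 to 17.6 CPM in the controls and 16.8 in the TRULI library, did not pass the test at 5 days, and by name it fell between TRULI and withdrawal (-2.04 ± 0.54, 0.0416).

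**Figure D4:**
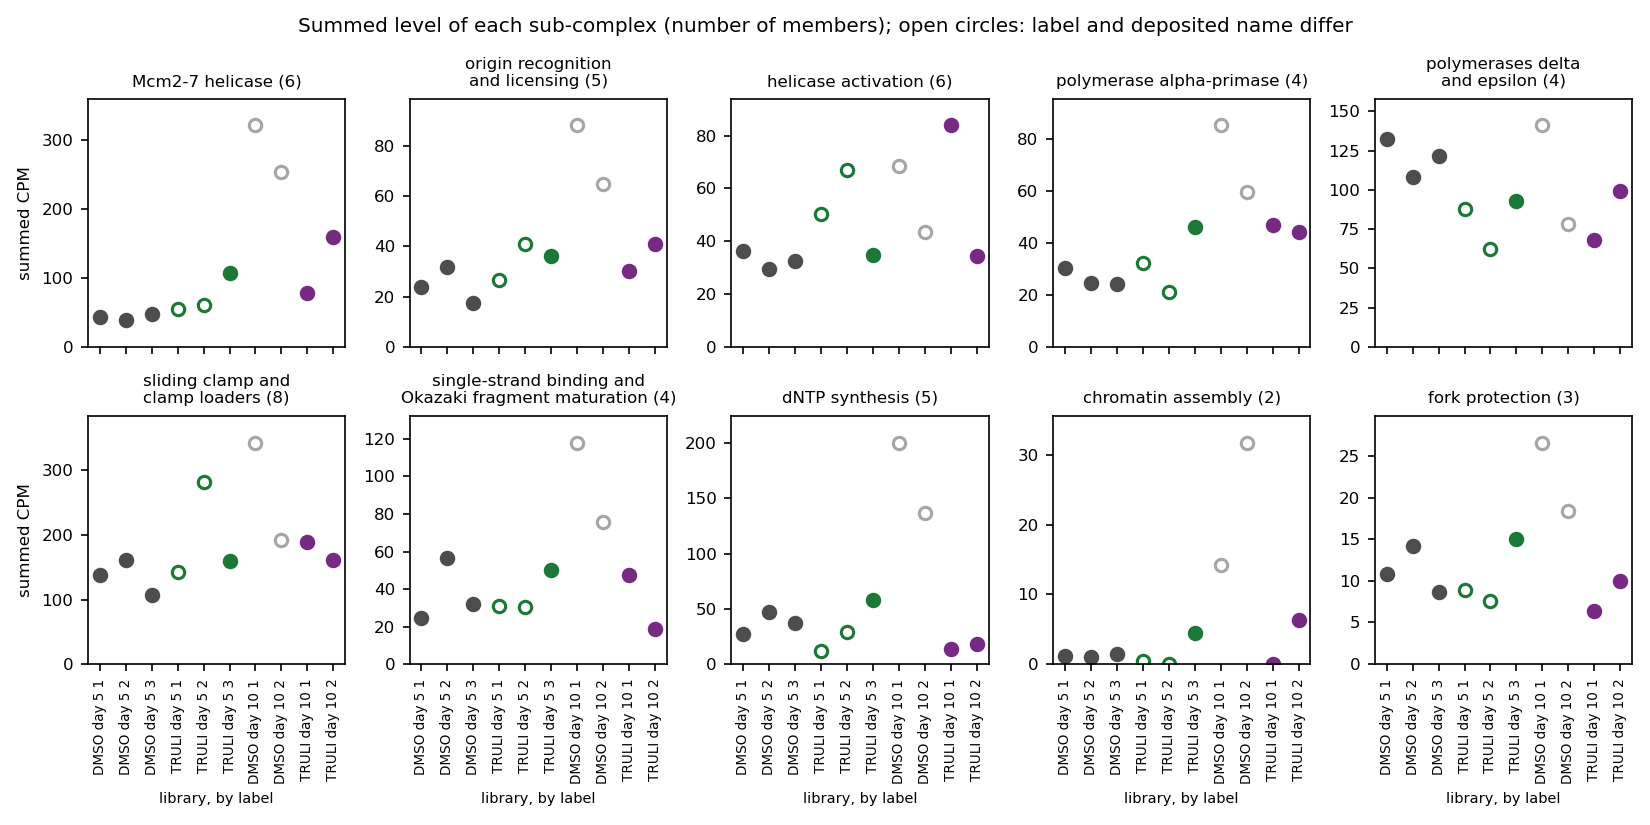
Summed CPM of each of the 10 sub-complexes (panels, with the number of genes) in each library, by label. Open circles mark pairs A and B, whose label and deposited name differ; pair B has the 2 highest sums for the Mcm2-7 helicase (321 and 254 CPM) and for dNTP synthesis (200.4 and 136.6 CPM), and polymerases delta and epsilon show no such separation.

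The dNTP synthesis genes were high in pair B and low after withdrawal. Their sum was 27.6, 47.3 and 36.9 CPM in the controls, 58.1 in the TRULI library, 11.4 and 29.45 in pair A, 200.4 and 136.6 in pair B, and 13.6 and 17.9 in the withdrawn libraries. Every value of pair B lay above the TRULI library, and both withdrawn libraries lay below every control. Rrm1 and Rrm2 encode the large and small subunits of ribonucleotide reductase, which makes deoxynucleotides from ribonucleotides. Rrm1 (chromosome 7, 102441695 to 102469771) was at 14.4, 16.4 and 15.9 CPM in the controls, 28.4 in the TRULI library, 6.88 and 1.80 in pair A, 73.1 and 34.0 in pair B, and 2.43 and 0.407 in the withdrawn libraries. The withdrawn libraries and pair A lay below every control, and the TRULI library and pair B above. By name Rrm1 rose at 5 days (1.56 ± 0.37, adjusted p 0.046) and fell between TRULI and withdrawal (-4.90 ± 0.79, 0.0135). The rise was not called with all 10 libraries in one fit (0.288).

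Rrm2 (chromosome 12, 24708241 to 24714146) was at 0, 4.27 and 1.98 CPM in the controls, 13.4 in the TRULI library, 0.156 and 0 in pair A, 71.4 and 65.0 in pair B, and 2.26 and 0 in the withdrawn libraries. Pair B and the TRULI library exceeded every control, and no other library did. By name it fell by 5.35 ± 1.16 on the log2 scale between TRULI and withdrawal (adjusted p 0.0243). By label it did not pass the filter on low counts at 5 days. Tyms, the thymidylate synthase, and Tk1, the thymidine kinase of S phase, were highest in pair B (21.9 and 8.29 CPM, and 11.2 and 10.3 CPM) and at 3.68 and 3.42 CPM in the TRULI library, against at most 4 and 1.97 in the controls, and neither was called in the edgeR fits of 2 groups with all libraries, the filter and no block. Without the filter Tyms was lower after withdrawal by label (adjusted p 0.0359), and Tk1 was higher at 5 days by name and lower after withdrawal by label without the filter (0.0119 and 0.0155), with the replicate block (0.0285 and 0.0461) and by DESeq2 (0.0238 and 0.0367). Dut, the dUTPase that keeps uracil out of DNA and the most abundant of the 5 per length, ranged from 3.91 to 26.2 CPM with no order by group (5 days, -0.12 ± 0.71 by label and 0.28 ± 0.44 by name, adjusted p 0.948 and 0.82).

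The origin recognition and licensing genes summed to 17.35 to 31.9 CPM in the controls, 36.3 in the TRULI library, 26.6 and 40.95 in pair A, 88.0 and 64.95 in pair B, and 30.1 and 40.9 in the withdrawn libraries. Cdc6 loads the helicase with the origin recognition complex. It was at 1.20, 0.986 and 0.496 CPM in the controls, 2.89 in the TRULI library, 1.72 and 0 in pair A, 22.1 and 9.63 in pair B, and 1.57 and 0.407 after withdrawal. By name it rose at 5 days (3.73 ± 0.81, adjusted p 0.0334), a call lost with all 10 libraries in one fit (0.14). It had 3, 3 and 2 counts in the controls and entered the test at 5 days with pair B. After withdrawal by label, at -3.93 ± 0.94, it did not pass the test (0.0694). It did pass without the filter (0.00173), with the replicate block (0.0128) and by DESeq2 (0.00339). Orc1, an ATPase subunit of the complex, had 2 counts in all 3 controls against 27 in the libraries named TRULI day 5, a ratio of 10.5 (95% exact interval 2.64 to 91.3) that rests on pair B, with 13 counts in each of its libraries and 1 in the TRULI library, and at most 3.23 CPM in any library. Orc6, the smallest subunit and the most abundant of the step per length, lay between 9.17 and 33.0 CPM everywhere (5 days, 0.89 ± 0.46 by label and 0.66 ± 0.32 by name, adjusted p 0.405 and 0.345). Cdt1 was highest in pair B (27.4 and 21.5 CPM) but reached 19.3 in the second withdrawn library. Gmnn, the Cdt1 inhibitor geminin, was at 3.97 to 4.79 CPM in the controls, 3.94 in the TRULI library, and 17.2 and 10.3 in pair B.

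Helicase activation factors did not move as a block. Mcm10, which acts at origin firing, was at 0, 0 and 0.991 CPM in the controls, 3.68 in the TRULI library, 0 and 0.718 in pair A, 9.70 and 3.14 in pair B, and 0 in both withdrawn libraries. By name it was called lower after withdrawal (adjusted p 0.024), with a mean of 5.5 CPM in the TRULI group and so at least 9.72-fold lower against a floor of 3 counts per library. It passed the filter on low counts there only through the TRULI group. Gins4, the most abundant of these 6 per length, reached 42.7 CPM in pair A and 21.8 in a withdrawn library, above the 13.2 and 9.63 of pair B, and was called in no comparison (5 days, 1.36 ± 0.55 by label and 0.29 ± 0.37 by name, adjusted p 0.351 and 0.766), although without the TRULI library the change by label was 1.65 (0.0453). Gins3 stood at 68.0 CPM in 1 withdrawn library and 1.63 in the other, against 1.64 to 14.2 elsewhere, and without the filter it was called higher in the withdrawn libraries by name against pair A and against the TRULI group (adjusted p 0.0281 and 0.00587). Cdc45, whose exons overlap Ufd1, ranged from 6.71 to 21.9 CPM, Gins1 from 0 to 3.98 and Gins2 from 0 to 5.72.

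Among the subunits of polymerase alpha-primase, which lays the RNA-DNA primers, Prim2 rose at 5 days by name (1.65 ± 0.35, adjusted p 0.0302), a call lost without any 1 control or library of pair B (0.0696 to 0.142) and with all 10 libraries in one fit (0.0722). Its values were 7.19, 8.54 and 10.9 CPM in the controls, 20.2 in the TRULI library, 11.4 and 12.2 in pair A, 25.1 and 37.9 in pair B, and 20.3 and 24.0 in the withdrawn libraries. Every other library lay above every control, withdrawn ones included, and by label the change at 5 days was 0.73 ± 0.48 (0.493). Pola1, the catalytic subunit, was at 12.4, 6.90 and 4.21 CPM in the controls, 12.35 in the TRULI library, 27.1 and 5.38 in pair B, 0.782 and 1.80 in pair A, and 2.26 and 1.02 after withdrawal, and by name it fell between TRULI and withdrawal (-3.12 ± 0.85, 0.045). Prim1 reached 21.1 and 8.29 CPM in pair B and 7.09 in the TRULI library, against at most 3.20 in the controls, but missed the threshold at 5 days by name (2.30 ± 0.58, 0.0589), which it passed by DESeq2 (0.00856), without the filter (0.00216) and with the replicate block (0.0167). Pola2 differed, with its higher values of 16.7 and 18.3 in the withdrawn libraries and 18.0 in the first library of pair A.

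The polymerases delta and epsilon, which extend the lagging and leading strands, were called in no comparison by edgeR with the 2 groups in one fit, every library and gene type, and the filter on low counts. Pole, the catalytic subunit of epsilon, was at 125, 99.2 and 111 CPM in the controls, 84.6 in the TRULI library, 81.8 and 54.2 in pair A, 118 and 61.1 in pair B, and 57.0 and 90.3 in the withdrawn libraries. Its groups at 5 days by label did not overlap, with the controls higher, at -0.58 ± 0.32 (adjusted p 0.428), and by name the change was -0.32 ± 0.26 (0.595). Its exons on chromosome 5 overlap Gm15792 on the other strand. Pold1 missed the threshold after withdrawal (0.348 and 0.814 CPM against 7.96 and 5.60 in pair B, adjusted p 0.0951 by label and 0.0542 by name against the TRULI group), and in the latter it passed by DESeq2 (0.0181), without the filter (0.0402), with nuclear protein-coding genes alone (0.0498) and with all 10 libraries in one fit (0.0429). Pold2 ranged from 2.36 to 6.96 CPM and Pole2 from 0 to 7.71.

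Pcna encodes the sliding clamp that tethers the polymerases, and it was the most abundant gene of all 47 per length. It was at 53.9, 76.2 and 31.2 CPM in the controls, 69.9 in the TRULI library, 44.3 and 50.6 in pair A, 146 and 66.3 in pair B, and 57.9 and 37.6 in the withdrawn libraries. Apart from the first library of pair B, all values lay within 31.2 to 76.2 CPM. No comparison with every library called it (5 days, 0.05 ± 0.40 by label and 0.83 ± 0.38 by name, adjusted p 0.958 and 0.301). At 5 days by name the adjusted p was 0.0233 with the replicate block (0.825) and 0.0363 without the filter (0.837). Both changes were below the fold threshold of a call. After withdrawal by label it was at -1.13 ± 0.48 (0.198), and at -1.51 without the first withdrawn library.

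None of the 5 Rfc subunits of the clamp loader, which opens Pcna onto primed DNA, was called by edgeR with every library and the filter on low counts. Without that filter Rfc5 was higher at 5 days by label, and Rfc4 was lower in withdrawn against TRULI libraries by name (adjusted p 0.0481, and 0.0425 by DESeq2). Rfc1 lay between 28.0 and 60.4 CPM, Rfc2 between 14.4 and 46.0, Rfc3 between 2.43 and 15.7 and Rfc4 between 1.56 and 23.6. Rfc5 was at 145 CPM in the second library of pair A and at 10.8 to 49.7 elsewhere, with exons that overlap Wsb2. Fam111a and Dscc1 had the lowest levels of the group per length. Fam111a, a protease that acts at replication forks with Pcna, had no counts in the 3 controls or pair A, 5.52 CPM in the TRULI library, 19.1 and 8.51 in pair B, and 0.522 and 0 after withdrawal. By name it was called higher at 5 days (adjusted p 0.00964), at least 11.3-fold against 3 counts per library. It was lower in withdrawn against TRULI libraries with 3 counts against 136, a ratio of 39.3 (95% exact interval 13.2 to 193, adjusted p 0.0259). In both fits it passed the filter on low counts only through the libraries named TRULI day 5, where it is high. These 2 calls thus add nothing to the counts themselves. Dscc1, of an alternative clamp loader, had 1 count in the TRULI library and 21 and 4 in pair B, and none in the other 7.

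Of the genes that coat single strands and finish Okazaki fragments, Lig1, the ligase that seals them, rose at 5 days by name (2.87 ± 0.49, adjusted p 0.0131). It stood at 2.80, 2.96 and 2.97 CPM in the controls, 10.2 in the TRULI library, 9.54 and 6.47 in pair A, 33.3 and 19.9 in pair B, and 12.9 and 3.25 in the withdrawn libraries. Every other library thus exceeded every control. By label the change at 5 days was 1.60 ± 0.58 (0.337). Rpa1, the large subunit of the single-strand binding protein RPA and the most abundant here per length, was at 41.0 and 29.8 CPM in pair B against 12.0 to 32.2 in the controls and 4.07 to 10.8 in pair A and after withdrawal, and its log2 fold change at 5 days by name was 0.57 ± 0.42 (adjusted p 0.553). After withdrawal by label it was at -2.23 ± 0.63 (0.0924), a difference that passed the threshold without the filter (0.0119), with the replicate block (0.0254), by DESeq2 (0.0165) and without the first or second withdrawn library (2.72e-05 and 0.0253). In withdrawn against TRULI libraries by name it was at -1.94 ± 0.60 (0.0619), and passed without the filter (0.00709), with all 10 libraries in one fit (0.0395), by DESeq2 (0.0116) and without the first withdrawn library (0.0215). Rpa2 ranged from 1.02 to 21.4 CPM and Fen1, the flap nuclease, from 6.44 to 22.4.

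Both subunits of the chromatin assembly factor measured here were scarce outside pair B. Chaf1b was at 0.400, 0.657 and 1.49 CPM in the controls, 3.15 in the TRULI library, 0.156 and 0 in pair A, 12.4 and 29.6 in pair B, and 0 and 6.31 in the withdrawn libraries. The TRULI library and pair B lay above every control, and by name it rose at 5 days (4.03 ± 0.85, adjusted p 0.0302). That adjusted p was 0.184 with all 10 libraries in one fit and 0.0686 to 0.161 without any 1 control or library of pair B. By label after withdrawal it was at -2.75 ± 1.37 (0.258), and it was called lower there with the replicate block (-3.72, 0.0388) and without the filter (-2.72, 0.0119). The change was -1.76 without the first withdrawn library and -9.65 without the second. In withdrawn against TRULI libraries by name it was at -2.26 ± 1.37 (0.28), and at -2.25 (0.0182) without the filter. There it ran from -9.1 to -1.21 when 1 library was left out. Chaf1a stayed at or below 2.24 CPM, with 3 counts in the controls against 22 in the libraries named TRULI day 5, a ratio of 5.72 (95% exact interval 1.72 to 29.8), with 5 of the 22 in the TRULI library. By label the ratio was 1.72 (0.393 to 10.3), from 3 counts against 7.

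Fork protection factors were likewise low, apart from Tipin. Tipin, the most abundant of the 3 per length, lay between 3.83 and 16.2 CPM and was called nowhere (5 days, -0.14 ± 0.49 by label and 0.27 ± 0.37 by name, adjusted p 0.906 and 0.786). Its partner Timeless had 2 counts in the controls against 50 in the libraries named TRULI day 5, a ratio of 19.5 (95% exact interval 5.12 to 165), and Clspn, the checkpoint mediator claspin, had 1 against 39, a ratio of 30.4 (5.14 to 1230), with 4 and 5 of these counts in the TRULI library and the others in pair B. By label the same ratios at 5 days were 1.48 (0.212 to 16.3) and 3.69 (0.413 to 175). Counts this low were filtered out of the test at 5 days under both groupings.

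**Figure D5:**
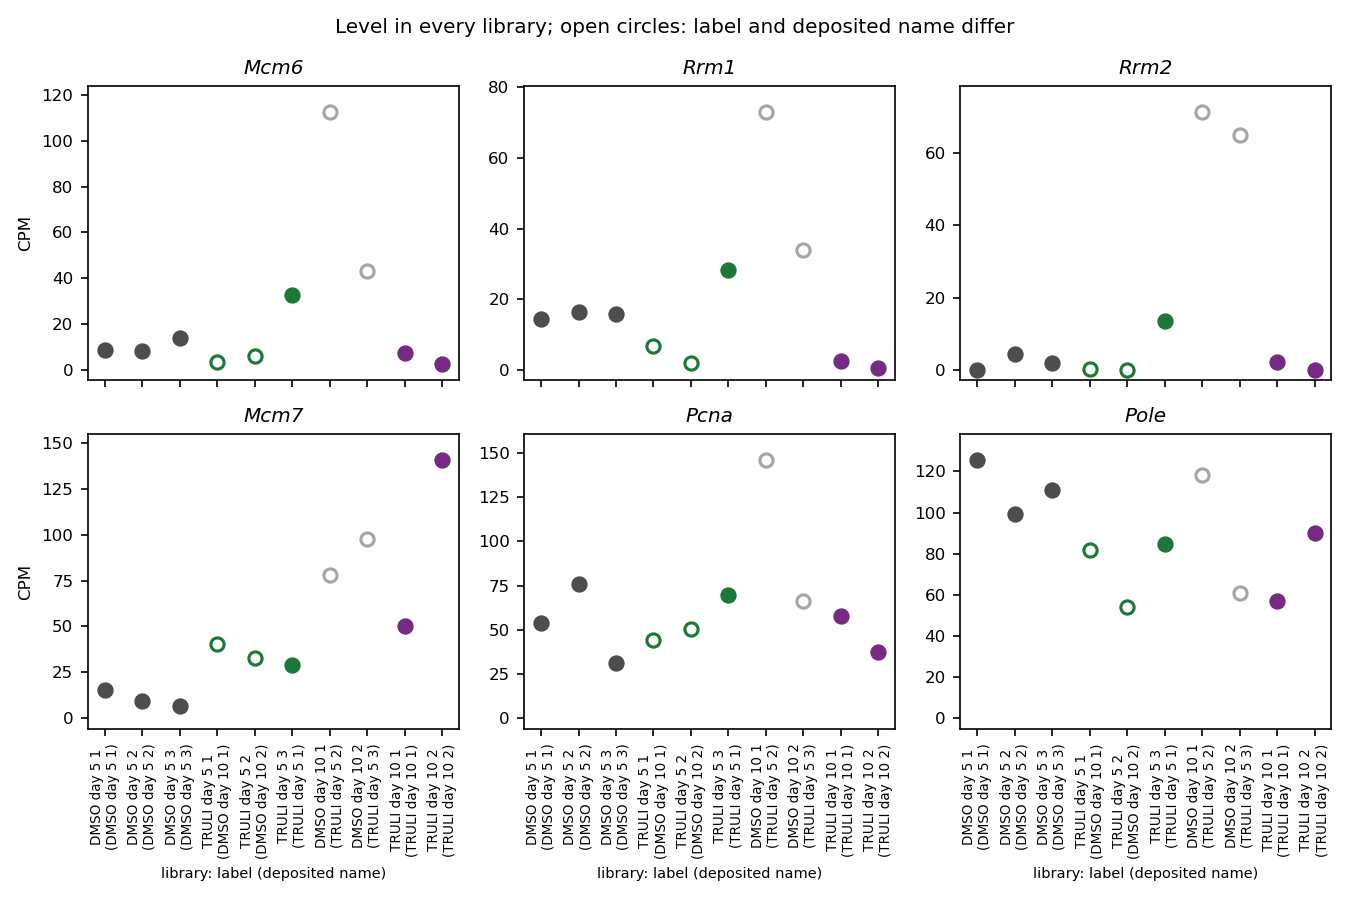
CPM of Mcm6, Rrm1, Rrm2, Mcm7, Pcna and Pole in every library, by label with the deposited name below; open circles mark pairs A and B. Mcm6, Rrm1 and Rrm2 share their 3 highest libraries (pair B and the TRULI library), Mcm7 is highest in a withdrawn library at 141 CPM, and Pole spans 54.2 to 125 CPM.

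The wider pathway was read from 74 other genes in 3 lists. At 5 days by label, 0 of 25 other replication genes, 0 of 24 other nucleotide synthesis genes and 0 of 11 genes of the E2F, DP and Rb families tested were called in edgeR, with 1, 4 and 3 at an unadjusted p under 0.05, and DESeq2 called 0, 0 and 1. By name 3 of 29 (Top2a, Asf1b and Uhrf1), 2 of 25 (Ctps and Dctd) and 1 of 11 (E2f1) rose and none fell, where 2.05% of all genes tested rose and 1.02% fell. Top2a, the topoisomerase that untangles copied DNA, rose by 4.12 ± 0.70 on the log2 scale (adjusted p 0.0124), and the histone chaperone gene Asf1b by 4.21 ± 0.74 (0.0141). Ctps, which makes CTP, rose by 2.14 ± 0.34 (0.00894), from 6.79 to 14.5 CPM in the controls to 35.5 in the TRULI library and 51.2 and 60.0 in pair B, and it was at 18.3 to 34.0 in pair A and after withdrawal. E2f1, a transcriptional activator of S-phase genes, rose by 2.96 ± 0.64 (0.034). Its control values of 0.657 to 1.73 CPM lay below those of every other library, including the 12.2 and 11.1 of pair A.

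After withdrawal by label, Top2a (-6.75 ± 0.77, edgeR adjusted p 0.0312), Uhrf1 (-3.53 ± 0.62, 0.0442) and E2f8 (0.0425) were lower, 2 of 33 and 1 of 13 in their lists. Of 25 nucleotide synthesis genes 0 were called, with 6 at an unadjusted p under 0.05, as were 3001 of all 12242 genes. Of all genes tested there, 1.06% were called lower. DESeq2 called 7 of the 33 and 2 of the 13 lower, and of the 25 it called 1 higher and 1 lower. It called 6.98% of all genes higher and 5.07% lower. E2f8, a repressor of S-phase genes, had no counts outside the TRULI library (1.31 CPM) and pair B (10.7 and 12.5), and passed the filter only through them. By name, against the TRULI group, 7 of 33 replication genes fell (Top2a, Topbp1, Ticrr, Supt16, Uhrf1, Ssrp1 and Wdhd1), 3 of 13 E2F, DP and Rb genes fell (E2f8, E2f6 and Rbl2), and of 26 nucleotide synthesis genes 2 fell (Dck and Umps) and 2 rose (Dguok and Dhodh). Ticrr, at 0 in both withdrawn libraries, passed the filter there only through the TRULI group. Of all genes tested, 5.85% fell and 8.04% rose. The counts of the nucleotide synthesis list were thus close to the background in both directions. Dguok, a mitochondrial deoxyguanosine kinase, was at 123 and 192 CPM in the withdrawn libraries and at 122 and 152 in pair A. It was at 28.0 to 59.4 in the other 6, so that the 4 libraries with little mt-Rnr2 were the 4 highest. Dhodh was highest in the same 4. Of the genes of these lists that fell, Ssrp1, Supt16, Wdhd1 and E2f6 were lowest in those 4 libraries, and the rest were not. Ssrp1 was at 37.1 to 63.8 CPM there and at 109 to 202 in the other 6. The part of this split in the calls was not tested.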

How the data were processed

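The authors mapped reads of each library with STAR to GRCm38 (mm10 in the submitters' processing notes), and the deposited tables give an expected count and an effective length per gene, in bases, with no normalization by the authors. The counting program and its strand setting are not given in the sources used here. For library preparation, an Illumina kit after polyA enrichment stands in the labels and a QIAseq FX Single Cell kit in the methods. All 10 tables were used, and 48349 of 48709 gene IDs matched GENCODE M21. No 2 libraries held the same counts (chi-square per degree of freedom at least 15.3).

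Expected counts were rounded to whole numbers and compared with edgeR 4.0.16 (R 4.3.3): filterByExpr, TMM factors and the quasi-likelihood test, with the 2 groups of a comparison in one fit and Benjamini-Hochberg adjustment over all genes tested. Calls needed an adjusted p below 0.05 together with a log2 fold change of over 1 in size. Standard errors are the fold change divided by the square root of F. CPM of single libraries use TMM factors over all 10. A gene at 0 in a whole group is given as a bound against 3 counts per library, and one at 1 to 3 counts in a group as a ratio with an exact 95% binomial interval. Fits were tested on counts simulated with less spread between libraries than these data have. That test does not give error rates for these data. All 47 genes are named; fold changes are given for the most abundant gene of each sub-complex per length and for genes called under either grouping. The genes, lists and comparisons were chosen with earlier results of these data known.

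Alternatives were DESeq2 1.42.0, the size factors of DESeq2, testing without the filter, one fit of all 10 libraries, nuclear protein-coding genes, the replicate number as a block, leaving out each library, the libraries with the same condition in label and name, and the adjusted p alone, which for groups by name was chosen after seeing the data. Deviations of same-numbered libraries at 5 days correlated at 0.381, 0.192 and 0.315 by name and at -0.159, 0.0667 and -0.196 by label. Numbers by name come from the names of the tables alone.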

Additional observations from a re-analysis of the deposited data

How the results depend on the processing

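Counts of calls depended on the source of the groups and, after withdrawal by label, as much on other choices. With the deposited names in place of the labels, genes called higher at 5 days went from 0 to 12, genes called lower after withdrawal from 3 to 0, and genes called lower in withdrawn against TRULI libraries from 0 to 9. Within the labelled groups, genes called higher at 5 days were 1 by DESeq2 and 2 without the filter, and genes called lower after withdrawal were 14 by DESeq2, 17 without the filter, 0 with all 10 libraries in one fit and 15 with the replicate block, beside 621, 701, 0 and 544 over all genes tested and 130 in the fit as reported. Larger effects at 5 days than after withdrawal, meaning higher signed log2 fold changes here and below, were 1 by DESeq2 and 6 without the filter by label. By name they were 1 and 2. Of all genes tested, 0.265% and 0.709% by label and 0.327% and 0.551% by name were so called. By name, without the filter, 19 genes were called higher at 5 days (3.22% of all genes tested) and 1 higher after withdrawal (0.788%). In withdrawn against TRULI libraries, 1 was called higher and 19 lower without the filter, where 8.41% and 6.28% of all genes were. DESeq2 called 16 lower there (10.4% of all genes), and all 10 libraries in one fit 3 higher at 5 days (0.522%). Leaving out 1 library at a time gave, by label, 0 to 3 higher at 5 days, 0 to 1 higher and 0 to 22 lower after withdrawal, and by name 1 to 15 higher at 5 days, 0 to 1 higher and 0 to 14 lower in withdrawn against TRULI libraries, and 0 to 2 with a larger effect at 5 days. Counts over all genes tested moved in the same refits, by label from 0 to 1215 higher at 5 days and from 8 to 1653 lower after withdrawal when 1 library was left out. The cause of these shifts was not tested. The replicate block gave 16 genes higher at 5 days by name, where 4.1% of all genes tested were, against 2.05% in the fit as reported. For the 2 pairs after withdrawal, the replicates share only a number.

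Of the 10 most abundant genes per sub-complex, fold changes changed sign in 68 refits, in all of which the adjusted p was 0.05 or more. With names in place of labels, at 5 days Rpa1 went from -0.996 to 0.573, Dut to 0.279 and Tipin to 0.267 (0.22 in the libraries with one condition). After withdrawal Gins4 went to -1.23, Prim2 to 0.918, Pole to 0.121, Pcna to 0.0276 and Rpa1 to 0.274. In withdrawn against TRULI libraries Gins4 went to 0.197, Prim2 to -0.304, Pole to -0.227 and Chaf1b to -2.26, and with the same-condition libraries Gins4 to 0.12, Pole to -0.175 and Dut to 0.158. With the replicate block, after withdrawal Mcm7 was at -0.0394 and Gins4 at -0.12 by label and Pcna at -0.00451 by name; in withdrawn against TRULI libraries Rpa1 was at 0.127 by label, and Orc6 at 0.0479, Gins4 at -0.264 and Prim2 at 0.0152 by name. Orc6 after withdrawal was at 0.00921 by DESeq2, 0.0092 with its size factors and 0.019 without the filter, and by name in withdrawn against TRULI libraries at 0.00197 and 0.00181 with the first 2 of these. Pole in withdrawn against TRULI libraries was at -0.00066 and -1.28e-05 with the same 2.

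Leaving out each library, the ranges that crossed 0 were as follows. At 5 days by label, Pcna -0.228 to 0.387, Dut -1.12 to 0.358 and Tipin -0.406 to 0.0295; by name, Dut -0.0253 to 0.627. After withdrawal by label, Mcm7 -0.813 to 0.659, Orc6 -0.126 to 0.109, Gins4 -1.28 to 0.911 and Pole -0.662 to 0.24; by name, Orc6 -0.78 to 0.246, Pole -0.236 to 0.439, Pcna -0.338 to 0.305, Rpa1 -0.621 to 0.802, Dut -1.38 to 1.38 and Tipin -1.08 to 0.268. In withdrawn against TRULI libraries by label, Orc6 -0.474 to 0.0812, Pole -0.332 to 0.3, Pcna -0.54 to 0.112, Rpa1 -1.26 to 0.274, Dut -0.911 to 0.631 and Tipin -1.3 to 0.0448; by name, Mcm7 -0.45 to 1.09, Orc6 -0.0794 to 0.043, Gins4 -1.32 to 0.934, Prim2 -0.504 to 0.00582 and Pole -0.634 to 0.0797. Another 577 refits of these genes kept direction and side of the threshold, 24 newly passed it and 14 no longer did. Withdrawal could not be fitted on libraries with one condition in label and name, since no control of that time is among them. Genes at 3 counts or fewer in a group cannot be ranked at this depth.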
